A study of Mus musculus with 18 samples.

Results

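Of 19937 genes represented on the array by probe sets with 1 gene symbol, 59 were Rab GTPases, chosen as genes whose symbol is Rab followed directly by a digit. Their 62 probe sets carried no second symbol, and for Rab11b, Rab2a and Rab5b, the 3 genes with several probe sets, the one with the highest mean over all arrays was used. Expression was measured on 18 arrays, in 6 groups of 3, from cells of the colon lamina propria of BALB/c mice aged 8 weeks. The cells were MHC+CD11chigh and were sorted by CD103 and CD11b into 3 subsets. One set of 3 groups held the CD103+CD11b- subset, the CD103+CD11b+ subset and the CD103-CD11b+ subset of mice that received 2% DSS (dextran sulfate sodium, which damages the gut lining and brings on colitis). The other set held the same subsets of mice whose labels name no DSS, called untreated here. RNA was amplified from 5 ng per sample before hybridisation. Values are log2 expression as deposited, and the level of one gene cannot be set against that of another. Replicates 4, 5 and 6 are the DSS experiments and replicates 1, 2 and 3 the untreated ones, and values below keep that order within a group. Each experiment gave 1 array of every subset and held a single condition, so experiment and DSS cannot be told apart. How many animals stand behind an array is not stated, nor whether replicates were separate animals, so the p-values measure only the spread between these samples, which may be technical. In such bulk samples fewer cells of a type and less RNA per cell cannot be told apart.

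Rab proteins are small GTPases that mark the membranes of a cell and direct the budding, transport, tethering and fusion of vesicles. Guanine nucleotide exchange factors (GEFs) load them with GTP, which lets them bind effectors, GTPase-activating proteins (GAPs) switch them off, and escort proteins and prenylation enzymes place them on membranes. In dendritic cells they govern the uptake of antigen, the maturation of phagosomes, the return of MHC molecules to the surface and the release of cytokines, and CD103+CD11b- cells of the gut are mostly of the cDC1 type, known for presenting engulfed antigen on MHC class I.

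The promoter windows of 6 called Rab genes, all those with a match, are printed because each holds a match to a motif read by factors active in myeloid cells. The windows are the 250 bases upstream of an annotated start, from RefSeq on GRCm38.p6, 5′ to 3′ on the strand of the gene, with the match in capitals. Rab32 lies at chr10:10558208-10558457 on the minus strand and holds GAGGAAGT, the PU.1 motif, beginning 43 bases before the start. CACGTG, the E-box read by TFEB and USF, is held by Rab20 at chr8:11478641-11478890 on the minus strand, Rab21 at chr10:115315592-115315841 on the minus strand and Rab27a at chr9:73063898-73064147 on the plus strand, beginning 46, 30 and 246 bases before the start in that order. Rab34 at chr11:78188177-78188426 on the plus strand holds TGANTCA, read by AP-1 and BATF, beginning 58 bases before the start. Rab43 at chr6:87809758-87810007 on the minus strand holds TTNNGCAA, read by C/EBP factors, beginning 70 bases before the start. Rab27a, Rab34 and Rab43 have other windows in the table, which hold no match. Rab7b, Rab30 and Rab44, which were called as well, had no window and so were not searched.
Rab32: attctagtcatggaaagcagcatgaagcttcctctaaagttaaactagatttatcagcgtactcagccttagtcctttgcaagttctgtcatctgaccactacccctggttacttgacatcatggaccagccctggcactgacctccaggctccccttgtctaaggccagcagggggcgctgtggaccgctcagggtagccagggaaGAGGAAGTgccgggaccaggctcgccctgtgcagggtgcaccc
Rab20: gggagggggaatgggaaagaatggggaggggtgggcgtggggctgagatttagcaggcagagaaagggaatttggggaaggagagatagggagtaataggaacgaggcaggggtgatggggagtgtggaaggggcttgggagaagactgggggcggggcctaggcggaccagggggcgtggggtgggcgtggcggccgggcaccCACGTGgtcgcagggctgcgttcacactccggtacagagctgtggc
Rab21: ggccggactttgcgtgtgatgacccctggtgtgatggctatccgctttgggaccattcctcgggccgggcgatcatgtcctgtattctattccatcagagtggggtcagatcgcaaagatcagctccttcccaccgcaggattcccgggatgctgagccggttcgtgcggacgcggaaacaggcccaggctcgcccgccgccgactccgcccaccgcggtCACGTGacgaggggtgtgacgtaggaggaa
Rab27a: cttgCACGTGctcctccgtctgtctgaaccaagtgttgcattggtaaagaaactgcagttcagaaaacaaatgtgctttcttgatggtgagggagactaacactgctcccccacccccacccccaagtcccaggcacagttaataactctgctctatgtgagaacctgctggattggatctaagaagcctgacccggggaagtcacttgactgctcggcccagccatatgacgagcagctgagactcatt
Rab34: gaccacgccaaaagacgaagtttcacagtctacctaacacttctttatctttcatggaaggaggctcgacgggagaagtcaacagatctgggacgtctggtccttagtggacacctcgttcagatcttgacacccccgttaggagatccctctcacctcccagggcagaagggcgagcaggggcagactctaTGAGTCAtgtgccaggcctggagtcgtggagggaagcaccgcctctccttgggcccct
Rab43: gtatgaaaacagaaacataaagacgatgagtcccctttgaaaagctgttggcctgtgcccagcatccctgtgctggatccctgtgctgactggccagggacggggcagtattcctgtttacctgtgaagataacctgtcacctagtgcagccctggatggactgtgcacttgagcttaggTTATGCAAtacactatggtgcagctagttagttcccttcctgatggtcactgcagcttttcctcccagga
On both strands, 7 motifs were searched in 60 windows of 48 Rab genes, and none of the 6 windows printed held another of them. CACGTG was found in 8.33% of the Rab windows, against 6.02% of all 32851 promoters of that length. GAGGAAGT was found in 3.33% of Rab windows, against 2.44% of all. TGANTCA was in 3.33% of Rab windows and 6.75% of all, and TTNNGCAA in 6.67% and 9.56%. The remaining motifs, searched by consensus, were the ETS-IRF composite element (1.67% of Rab windows, 2.3% of all), the interferon-stimulated element (1.67% and 2.98%) and the NF-kappaB site (0% and 0.356%). A match describes these letters and is not a measured binding site.

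Itgae, which encodes CD103, lay at a log2 value of 9.58 to 9.66 in DSS and 9.27 to 9.45 in untreated CD103+CD11b- cells, at 8.85 to 9.24 and 8.68 to 8.95 in CD103+CD11b+ cells, and at 7.32 to 7.65 and 6.24 to 6.45 in CD103-CD11b+ cells. Itgam, which encodes CD11b, lay at 6.12 to 6.13 in DSS and 4.7 to 5.7 in untreated CD103+CD11b- cells, at 7.1 to 7.64 and 7.22 to 7.38 in CD103+CD11b+ cells, and at 7.74 to 8.17 and 7.68 to 8.13 in CD103-CD11b+ cells. Both were ordered as the labels say, but Itgae was higher in DSS than in untreated CD103-CD11b+ cells by 1.08 ± 0.13 (adjusted p = 0.00103). Itgam differed by 0.99 ± 0.2 between DSS and untreated CD103+CD11b- cells (adjusted p = 0.084). The mean per array of 7 cDC1 markers was 7.95 to 8.03 in CD103+CD11b- cells, 6.2 to 6.57 in CD103+CD11b+ cells and 5.88 to 6.35 in CD103-CD11b+ cells. For 6 cDC2 markers it was 5.29 to 5.78 in CD103+CD11b- cells, 7.76 to 8.16 in CD103+CD11b+ cells and 8.01 to 8.37 in CD103-CD11b+ cells, and for 10 macrophage markers 5.85 to 6.47, 6.71 to 6.9 and 7.61 to 8.36 in that order. For 10 epithelial markers, none with a group mean under the filter described below, the values were 7.72 to 8.54 in CD103+CD11b- cells, 8.24 to 8.88 in CD103+CD11b+ cells and 7.91 to 8.63 in CD103-CD11b+ cells. In both conditions 7 of 7 cDC1 markers were called higher, 6 of 6 cDC2 markers lower and 8 of 10 macrophage markers lower in CD103+CD11b- cells than in the CD103-CD11b+ subset. The part of these cell types in the Rab differences was not tested.

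A minority of the Rab genes separated the groups. Of the 59 genes, 50 passed the filter on low values (above a log2 value of 3.51 in at least 3 arrays) and were tested. The 9 under it were Rab15, Rab33a, Rab36, Rab38, Rab3b, Rab3c, Rab40b, Rab42 and Rab6b. By limma's moderated F test over the 6 groups, adjusted by the Benjamini-Hochberg method over 14003 genes, 12 Rab genes differed, which is 24% of those tested, against 14.7% of all genes. From the lowest p up they were Rab7b, Rab43, Rab32, Rab44, Rab27a, Rab13, Rab31, Rab30, Rab21, Rab6a, Rab20 and Rab34. The median range of the group means was 0.43 over the tested Rab genes and 0.38 over all genes, on the log2 scale.

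**Figure D1:**
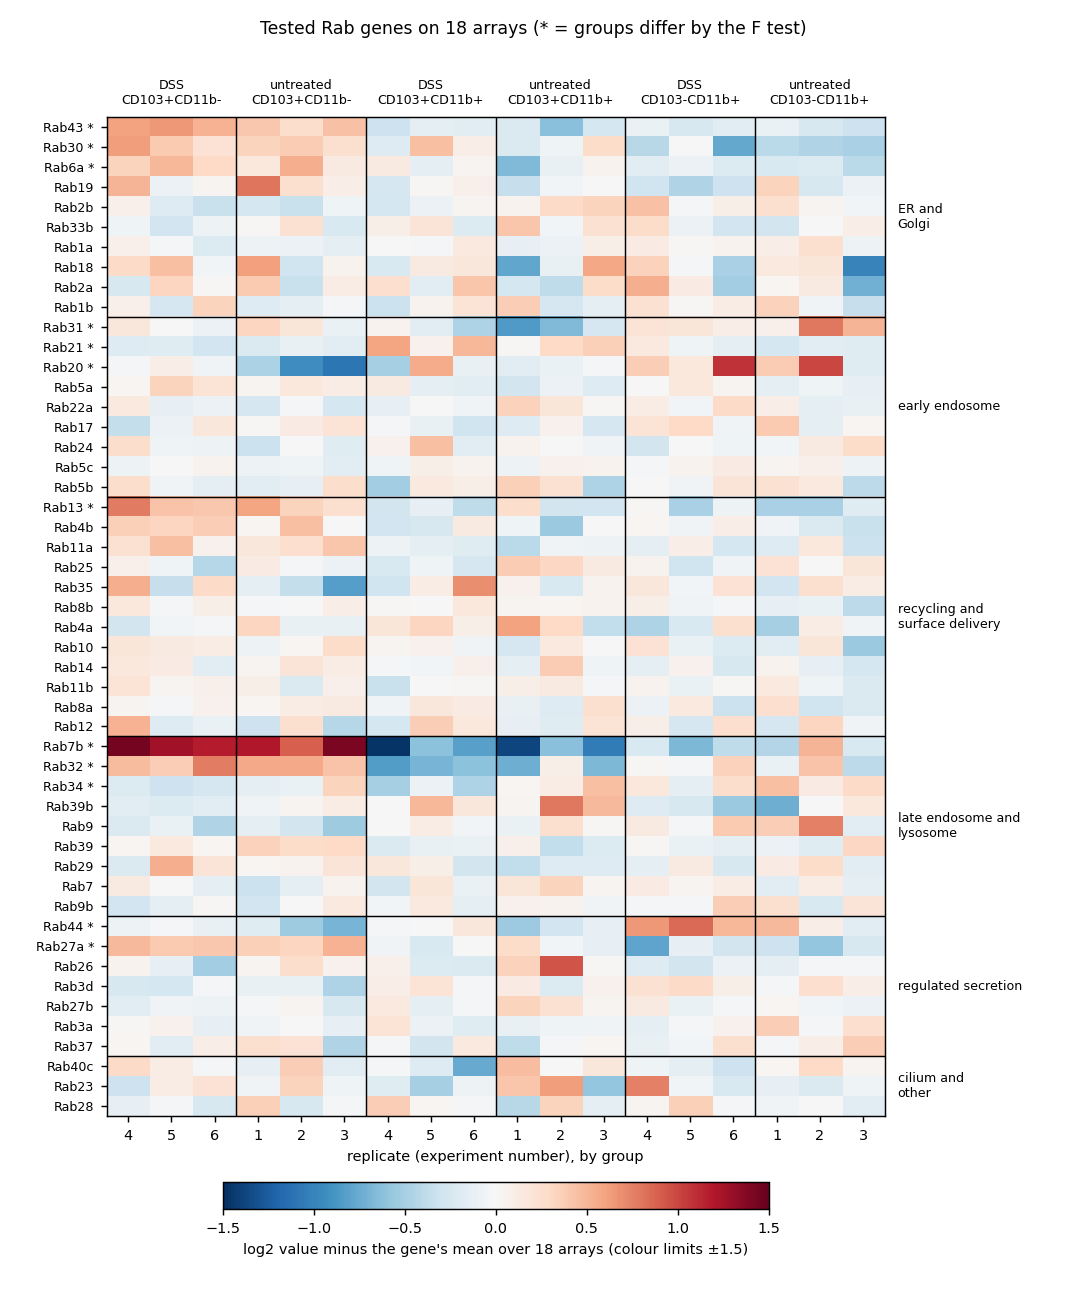
Each row is 1 of the 50 tested Rab genes, grouped by the compartment it serves, and each column 1 of the 18 arrays. Colour is the log2 value minus the mean of that gene over all arrays, and an asterisk marks the 12 genes that differed by the F test. Rab7b is well above its mean in all 6 CD103+CD11b- arrays and below it in the 6 CD103+CD11b+ arrays.

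Some Rab genes set CD103+CD11b- cells apart from the other subsets in both conditions, where a share of all genes did so too. Against CD103-CD11b+ cells, 6 of 50 Rab genes (12%) were called (adjusted p under 0.05) in DSS mice, 5 higher and 1 lower. There 8.53% of all genes were called, 4.19% higher and 4.34% lower. In untreated mice 9 (18%) were called, 6 higher and 3 lower, where 10.3% of all genes were called, 5.01% higher and 5.32% lower. Rab7b, Rab27a, Rab30, Rab43 and Rab13 were higher and Rab44 was lower in both conditions, and Rab6a was higher and Rab20 and Rab9 lower in untreated mice. Against CD103+CD11b+ cells, 5 (10%) were called in DSS mice, 4 higher and 1 lower, where 5.96% of all genes were called, 3.56% higher and 2.39% lower. In untreated mice 5 (10%) were called, all higher, 1 of them Rab39, where 6.86% of all genes were called, 2.76% higher and 4.09% lower. Rab7b, Rab32 and Rab43 were higher in both conditions. Rab13 was higher and Rab21 lower in DSS mice, and Rab31 was higher in untreated mice. Rab39 passed the filter through the untreated CD103+CD11b- arrays themselves, so its call carries no weight. The comparisons of a condition share the CD103+CD11b- arrays, whereas the DSS and untreated comparisons share none.

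Between CD103+CD11b+ and CD103-CD11b+ cells the share of Rab genes called was near or below that of all genes. In untreated mice Rab31 and Rab7b were lower in CD103+CD11b+ cells, 2 of 50 genes (4%), where 4.11% of all genes were called, 2.36% higher and 1.75% lower. In DSS mice limma called 0 Rab genes, where limma called 1.58% of all genes (0.436% higher, 1.14% lower), and 7 had an unadjusted p under 0.05 (14%, against 9.61% of all genes). The median Rab difference between subsets lay from -0.06 to 0.04 over these 6 comparisons, and that of all genes from -0.06 to 0.07. Groups whose 3 arrays all lay on 1 side of the other 3 are said below not to overlap. Among all genes this held for 24.6% (DSS) and 22.6% (untreated) between CD103+CD11b- and CD103-CD11b+ cells, for 22.8% and 22% between CD103+CD11b- and CD103+CD11b+ cells, and for 16.5% and 17.4% between CD103+CD11b+ and CD103-CD11b+ cells.

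**Figure D2:**
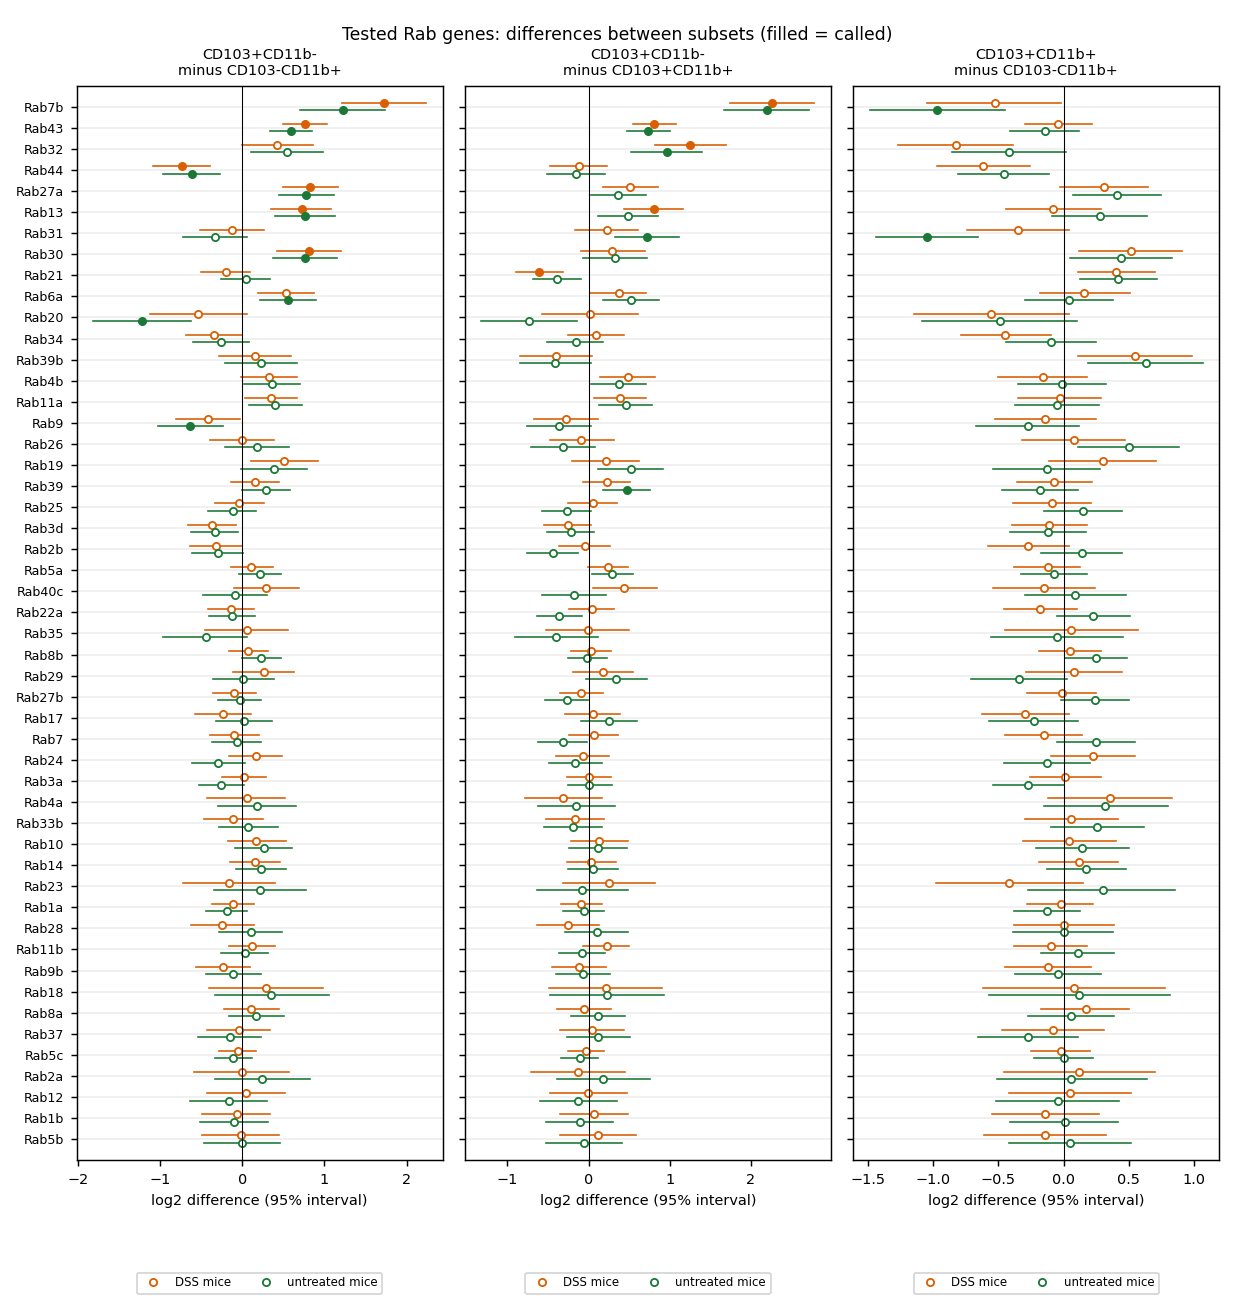
Log2 differences with 95% intervals for the 50 tested Rab genes, ordered by the F test, for CD103+CD11b- minus CD103-CD11b+ cells, CD103+CD11b- minus CD103+CD11b+ cells, and CD103+CD11b+ minus CD103-CD11b+ cells. Orange marks DSS mice, green untreated mice, and filled points are called. Rab7b has the largest difference in the first 2 panels, 1.72 and 2.26 in DSS mice, and most intervals below the first rows include 0.

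Among the 9 tested Rab genes of late endosomes and lysosomes, Rab7b and Rab32 had the clearest subset pattern. Rab7b, which directs transport from late endosomes to the trans-Golgi network, measured 6.95, 6.77 and 6.69 in DSS and 6.71, 6.41 and 6.92 in untreated CD103+CD11b- cells. It measured 4.04, 4.89 and 4.7 in DSS and 4.13, 4.88 and 4.46 in untreated CD103+CD11b+ cells, and 5.28, 4.83 and 5.13 in DSS and 5.07, 6.02 and 5.28 in untreated CD103-CD11b+ cells. Every CD103+CD11b- array lay above every array of the other subsets. The CD103+CD11b- level exceeded the CD103+CD11b+ level by 2.26 ± 0.25 in DSS mice (SE; 4.79-fold, adjusted p = 6.27e-06) and by 2.19 ± 0.25 in untreated mice (4.57-fold, adjusted p = 6.3e-06). Against CD103-CD11b+ cells it was higher by 1.72 ± 0.25 in DSS mice (adjusted p = 7.68e-05) and by 1.22 ± 0.25 in untreated mice (adjusted p = 0.00225). Within single experiments the first of these differences ran from 1.53 to 2.91 and the second from 0.39 to 1.94, so all 6 experiments had the same direction. Between CD103+CD11b+ and CD103-CD11b+ cells Rab7b differed by -0.97 ± 0.25 in untreated mice (adjusted p = 0.0311), and the groups did not overlap. That call was lost with only the groups compared in the fit. It was also lost without replicate 1 or 3 of untreated CD103+CD11b+ cells (adjusted p = 0.151 and 0.0714) or without replicate 2 of untreated CD103-CD11b+ cells (adjusted p = 0.165). In DSS mice the same difference was -0.53 ± 0.25 (adjusted p = 0.495).

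Rab32 builds lysosome-related organelles such as melanosomes and takes part in the defence of macrophages against Salmonella. It measured 6.73, 6.63 and 7.02 in DSS and 6.83, 6.83 and 6.68 in untreated CD103+CD11b- cells. The values were 5.42, 5.56 and 5.64 in DSS and 5.53, 6.35 and 5.58 in untreated CD103+CD11b+ cells, and 6.28, 6.24 and 6.6 in DSS and 6.16, 6.68 and 5.87 in untreated CD103-CD11b+ cells. CD103+CD11b- cells were at the top and CD103+CD11b+ cells at the bottom, with replicate 2 of the untreated CD103+CD11b+ cells above its 2 companions. Against CD103+CD11b+ cells, CD103+CD11b- cells were higher by 1.25 ± 0.21 in DSS mice (2.39-fold, adjusted p = 0.000549) and by 0.96 ± 0.21 in untreated mice (1.95-fold, adjusted p = 0.00568). Against CD103-CD11b+ cells the differences of 0.42 ± 0.21 in DSS mice and 0.54 ± 0.21 in untreated mice did not pass (adjusted p = 0.297 and 0.126), and the second passed with the experiment as a replicate block (adjusted p = 0.0284). CD103+CD11b+ cells were below CD103-CD11b+ cells by -0.83 ± 0.21 in DSS mice, with no overlap and an adjusted p of 0.0522, which was 0.00731 with the replicate block. In untreated mice that difference was -0.42 ± 0.21 (adjusted p = 0.336), and it was negative within all 6 experiments, from -0.96 to -0.29. The PU.1 letters of its window, printed above, also stand in a window of Rab2b, which was called in no comparison. Whether these letters bear on the Rab32 values was not tested.

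Rab9, which carries cargo from late endosomes to the trans-Golgi network, measured 6.37, 6.49 and 6.14 in DSS and 6.45, 6.31 and 6.05 in untreated CD103+CD11b- cells. In CD103-CD11b+ cells it measured 6.72, 6.56 and 6.98 after DSS and 6.96, 7.34 and 6.42 untreated. The untreated groups overlapped by replicate 3 of the CD103-CD11b+ cells. In untreated mice the difference was -0.64 ± 0.19 (adjusted p = 0.0348), and it was negative in all 6 experiments, from -1.03 to -0.07. This call was lost with only the groups compared in the fit. It was also lost without replicate 2 or 3 of untreated CD103+CD11b- cells (adjusted p = 0.0754 and 0.154) or without replicate 1 or 2 of untreated CD103-CD11b+ cells (adjusted p = 0.0974 and 0.198).

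Rab39, which acts in the maturation of phagosomes, was near the filter level, above it in 4 of the 18 arrays. It measured 3.6, 3.53 and 3.55 in untreated CD103+CD11b- cells, against 3.33, 2.89 and 3.05 in untreated CD103+CD11b+ cells. Those 3 higher values and 1 of 3.56 in untreated CD103-CD11b+ cells are the 4 above the filter level, so the gene was tested only because that group was high. The fitted difference was 0.47 ± 0.14 (adjusted p = 0.0445). The call was lost with only the groups compared in the fit. It was also lost without any 1 of the 3 untreated CD103+CD11b- arrays or without replicate 2 or 3 of untreated CD103+CD11b+ cells, with adjusted p of 0.0833 to 0.199.

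Rab34, which places lysosomes near the Golgi and serves cilia, passed the F test (adjusted p = 0.0409) and no comparison of 2 groups. It measured 4.12, 4.01 and 4.07 in DSS and 4.17, 4.22 and 4.66 in untreated CD103+CD11b- cells. In CD103+CD11b+ cells it measured 3.82, 4.23 and 3.86 after DSS and 4.35, 4.43 and 4.77 untreated, and in CD103-CD11b+ cells 4.48, 4.18 and 4.58 after DSS and 4.77, 4.45 and 4.61 untreated. The DSS arrays of the first 2 subsets were all below their untreated arrays, whereas the CD103-CD11b+ groups overlapped. The F test was lost with quantile normalization repeated (adjusted p = 0.0553), with arrays centred on their medians (adjusted p = 0.0578) and without any 1 of 10 arrays. Those were every DSS array except replicate 5 of CD103+CD11b+ and of CD103-CD11b+ cells, replicate 2 of untreated CD103+CD11b+ cells and replicates 1 and 3 of untreated CD103-CD11b+ cells, with adjusted p from 0.0524 to 0.115. The other tested members of the group, Rab7, Rab9b, Rab29 and Rab39b, were called nowhere. Rab7, the Rab of late endosome fusion, stayed between 9.29 and 9.94 on all arrays. Rab39b was on average 4.18 in DSS and 4.4 in untreated CD103+CD11b+ cells, against 3.63 and 3.76 in CD103-CD11b+ cells, a difference of 0.55 ± 0.21 in DSS mice (adjusted p = 0.314) and of 0.63 ± 0.21 in untreated mice (adjusted p = 0.11, and 0.0386 with the replicate block).

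Of 10 tested Rab genes of the endoplasmic reticulum and Golgi, Rab43, Rab30 and Rab6a were called. Rab43 acts in traffic through the Golgi and is known from mouse cDC1 as a Rab needed for presenting cell-associated antigen on MHC class I. It measured 7.74, 7.79 and 7.66 in DSS and 7.54, 7.4 and 7.57 in untreated CD103+CD11b- cells. In CD103+CD11b+ cells it measured 6.83, 6.99 and 6.96 after DSS and 6.92, 6.51 and 6.87 untreated, and in CD103-CD11b+ cells 7.04, 6.89 and 6.97 after DSS and 7.03, 6.9 and 6.82 untreated. The CD103+CD11b- arrays were all above the others, and the other 2 subsets overlapped each other. Against CD103+CD11b+ cells the difference was 0.8 ± 0.13 in DSS mice (1.75-fold, adjusted p = 0.000287) and 0.73 ± 0.13 in untreated mice (1.66-fold, adjusted p = 0.000629). Against CD103-CD11b+ cells it was 0.76 ± 0.13 in DSS mice (adjusted p = 0.000353) and 0.59 ± 0.13 in untreated mice (adjusted p = 0.00351). Within experiments the differences ran from 0.61 to 0.91 and from 0.5 to 0.91, and no call of Rab43 was lost under any alternative run.

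Rab30, which keeps the Golgi intact, measured 5.59, 5.35 and 5.18 in DSS and 5.29, 5.34 and 5.2 in untreated CD103+CD11b- cells. It measured 4.77, 5.41 and 5.06 in DSS and 4.74, 4.89 and 5.23 in untreated CD103+CD11b+ cells, and 4.54, 4.96 and 4.19 in DSS and 4.56, 4.51 and 4.47 in untreated CD103-CD11b+ cells. The CD103+CD11b- arrays lay above all CD103-CD11b+ arrays, and the CD103+CD11b+ arrays overlapped with the CD103+CD11b- arrays in both conditions. The difference between CD103+CD11b- and CD103-CD11b+ cells was 0.81 ± 0.19 in DSS mice (adjusted p = 0.00797) and 0.76 ± 0.19 in untreated mice (adjusted p = 0.0113). In DSS mice it was lost without replicate 4 of CD103+CD11b- cells (adjusted p = 0.0532) or replicate 6 of CD103-CD11b+ cells (adjusted p = 0.0636).

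Rab6a, which controls retrograde and secretory transport at the Golgi, measured 7.84, 8 and 7.8 in DSS and 7.66, 8.05 and 7.64 in untreated CD103+CD11b- cells. The values were 7.64, 7.37 and 7.54 in DSS and 6.84, 7.39 and 7.56 in untreated CD103+CD11b+ cells, and 7.34, 7.41 and 7.3 in DSS and 7.27, 7.3 and 7.1 in untreated CD103-CD11b+ cells. All CD103+CD11b- arrays were above all CD103-CD11b+ arrays. The difference between them was called in untreated mice (0.56 ± 0.16, adjusted p = 0.0323) and was 0.53 ± 0.16 in DSS mice (adjusted p = 0.051, and 0.0491 with the replicate block). The DSS difference passed in other settings too, with adjusted p from 0.0239 with only the groups compared to 0.0479 after quantile normalization again. It passed with no array left out, nor without a filter or with arrays centred on their medians. In untreated mice the call was lost with only the groups compared in the fit. It was also lost without any 1 of the 3 CD103-CD11b+ arrays or without replicate 2 of CD103+CD11b- cells (adjusted p from 0.0538 to 0.175). The F test was lost without replicate 5 of DSS CD103+CD11b- cells (adjusted p = 0.0634). Against CD103+CD11b+ cells the untreated difference was not called as reported, but passed in some settings, such as quantile normalization again (adjusted p = 0.0435). The remaining 7 genes, Rab1a, Rab1b, Rab2a, Rab2b, Rab18, Rab19 and Rab33b, were called nowhere. Rab1a, the Rab of transport from the endoplasmic reticulum to the Golgi, lay between 9.35 and 9.8 on all arrays.

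Of 9 tested Rab genes of early endosomes, Rab20, Rab31 and Rab21 were called, each with its own pattern. Rab20, which acts in the maturation of phagosomes in macrophages, measured 6.64, 6.77 and 6.62 in DSS and 6.2, 5.74 and 5.59 in untreated CD103+CD11b- cells. It measured 6.17, 7.23 and 6.56 in DSS and 6.51, 6.57 and 6.64 in untreated CD103+CD11b+ cells, and 7.04, 6.83 and 7.76 in DSS and 7.05, 7.67 and 6.49 in untreated CD103-CD11b+ cells. Untreated CD103+CD11b- cells were the lowest group and overlapped with only 1 array, replicate 4 of the DSS CD103+CD11b+ cells. In untreated mice CD103+CD11b- cells were below CD103-CD11b+ cells by -1.22 ± 0.28 (0.428-fold, adjusted p = 0.00688). In DSS mice the difference was -0.54 ± 0.28, which did not pass, and the difference between the conditions was 0.69 ± 0.4 (adjusted p = 1). The untreated call was lost without replicate 2 of CD103-CD11b+ cells (adjusted p = 0.0517), and the F test was lost without replicate 2 or 3 of untreated CD103+CD11b- cells (adjusted p = 0.0836 and 0.0995).

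Rab31, which works between the trans-Golgi network and endosomes, measured 6.05, 5.88 and 5.8 in DSS and 6.2, 6.07 and 5.78 in untreated CD103+CD11b- cells. It measured 5.93, 5.72 and 5.42 in DSS and 5.03, 5.22 and 5.63 in untreated CD103+CD11b+ cells, and 6.09, 6.07 and 5.98 in DSS and 5.96, 6.67 and 6.39 in untreated CD103-CD11b+ cells. CD103+CD11b+ cells were the lowest subset in both conditions, though in DSS mice they overlapped with CD103+CD11b- cells. In untreated mice CD103+CD11b+ cells were below CD103-CD11b+ cells by -1.05 ± 0.19 (0.483-fold, adjusted p = 0.00249), and the difference was negative in all 6 experiments, from -1.46 to -0.16. With only those groups in the fit the adjusted p was 0.0578. CD103+CD11b- cells were above CD103+CD11b+ cells by 0.72 ± 0.19 in untreated mice (adjusted p = 0.0205). That call was lost with only the groups compared in the fit and without replicate 1 or 2 of either group (adjusted p from 0.0656 to 0.117 without these replicates).

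Rab21, which carries integrins through early endosomes, measured 8.74, 8.75 and 8.65 in DSS and 8.72, 8.82 and 8.78 in untreated CD103+CD11b- cells. It measured 9.53, 9 and 9.43 in DSS and 8.95, 9.23 and 9.29 in untreated CD103+CD11b+ cells, and 9.08, 8.87 and 8.8 in DSS and 8.67, 8.78 and 8.76 in untreated CD103-CD11b+ cells. CD103+CD11b+ cells were the highest subset and did not overlap with CD103+CD11b- cells in either condition. In DSS mice CD103+CD11b- cells were below them by -0.61 ± 0.14 (0.657-fold, adjusted p = 0.0106), and the difference was negative in all 6 experiments, from -0.79 to -0.23. The call was lost without replicate 4 or 6 of DSS CD103+CD11b+ cells (adjusted p = 0.0785 and 0.0617), as was the F test (adjusted p = 0.0541 and 0.0548). Rab5a, Rab5b, Rab5c, Rab17, Rab22a and Rab24 were called nowhere, and Rab5a, the Rab of early endosome fusion, lay between 6.81 and 7.42 on all arrays. Rab20 and Rab21 share the CACGTG letters of the windows printed above with Rab27a, and the 3 genes were highest in different subsets. The same letters stand in windows of Rab5a and Rab23, which were called nowhere. Whether they bear on any of these values was not tested.

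Of 12 tested Rab genes of recycling and surface delivery only Rab13 was called. Rab13, which brings junction proteins and other cargo to the surface, measured 5.29, 4.94 and 4.92 in DSS and 5.1, 4.84 and 4.75 in untreated CD103+CD11b- cells. It measured 4.23, 4.39 and 4.13 in DSS and 4.77, 4.24 and 4.22 in untreated CD103+CD11b+ cells, and 4.53, 4.02 and 4.43 in DSS and 4.03, 4.03 and 4.33 in untreated CD103-CD11b+ cells. CD103+CD11b- cells were above all arrays of the other subsets, apart from replicate 1 of untreated CD103+CD11b+ cells, which lay just above the lowest of them. Against CD103-CD11b+ cells they were higher by 0.72 ± 0.17 in DSS mice (adjusted p = 0.0108) and by 0.76 ± 0.17 in untreated mice (adjusted p = 0.00627). Against CD103+CD11b+ cells they were higher by 0.8 ± 0.17 in DSS mice (adjusted p = 0.00666). In DSS mice the first call was lost without replicate 4 of CD103+CD11b- cells or replicate 5 of CD103-CD11b+ cells (adjusted p = 0.0735 and 0.0727), and the second without replicate 4 of CD103+CD11b- cells (adjusted p = 0.0523). The difference was positive in all 6 experiments against either subset. The other 11, Rab4a, Rab4b, Rab8a, Rab8b, Rab10, Rab11a, Rab11b, Rab12, Rab14, Rab25 and Rab35, were called nowhere, with ranges of group means from 0.17 to 0.61. Rab11a, the Rab of the recycling endosome, had a lowest adjusted p of 0.0869 over the tests as reported. In untreated mice CD103+CD11b- cells passed against CD103+CD11b+ cells after quantile normalization again (limma adjusted p = 0.0485). Without replicate 2 of untreated CD103-CD11b+ cells they passed against that subset (adjusted p = 0.0389), as did the F test (adjusted p = 0.0394).

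Of 7 tested Rab genes of regulated secretion, Rab27a and Rab44 were called, in opposite directions. Rab27a, which docks secretory lysosomes and exosome-forming endosomes at the surface, measured 5.73, 5.64 and 5.65 in DSS and 5.6, 5.57 and 5.77 in untreated CD103+CD11b- cells. It measured 5.2, 5.02 and 5.26 in DSS and 5.52, 5.21 and 5.12 in untreated CD103+CD11b+ cells, and 4.46, 5.13 and 4.97 in DSS and 4.94, 4.67 and 5.01 in untreated CD103-CD11b+ cells. Every CD103+CD11b- array was above every array of the other subsets, but the difference from CD103+CD11b+ cells was called in neither condition. The means were 5.67 against 5.16 in DSS and 5.64 against 5.28 in untreated mice. With only those groups in the fit, the DSS difference of 0.51 passed (adjusted p = 0.034). Against CD103-CD11b+ cells the difference was 0.82 ± 0.16 in DSS mice (1.77-fold, adjusted p = 0.00182) and 0.77 ± 0.16 in untreated mice (1.71-fold, adjusted p = 0.00283). It ran from 0.51 to 1.27 within experiments, and these calls held under every alternative run.

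Rab44, a large Rab known from the degranulation of mouse mast cells, measured 4.9, 4.96 and 4.86 in DSS and 4.79, 4.44 and 4.28 in untreated CD103+CD11b- cells. It measured 4.96, 4.97 and 5.15 in DSS and 4.43, 4.69 and 4.85 in untreated CD103+CD11b+ cells, and 5.63, 5.82 and 5.47 in DSS and 5.46, 5.08 and 4.82 in untreated CD103-CD11b+ cells. CD103-CD11b+ cells were the highest subset in each condition, and the DSS arrays of every subset had the higher mean. CD103+CD11b- cells were below CD103-CD11b+ cells by -0.74 ± 0.17 in DSS mice (0.6-fold, adjusted p = 0.00671) and by -0.62 ± 0.17 in untreated mice (0.651-fold, adjusted p = 0.0209). The difference was negative in all 6 experiments, from -0.86 to -0.54. The mean per array of 6 mast cell markers was 5.07 to 5.26 in DSS and 4.73 to 4.99 in untreated CD103+CD11b- cells, and 5 to 5.25 in DSS and 4.71 to 5.06 in untreated CD103-CD11b+ cells. Of 5 tested, only Kit was called between these subsets, higher in CD103+CD11b- cells (means of 9.88 against 8.97 in DSS and 9.81 against 8.91 in untreated mice). The mast cell proteases went the other way without a call. Mcpt1 had means of 6.13 against 6.67 in DSS and 5.44 against 5.68 in untreated mice, and Mcpt2 of 5.1 against 5.44 and 4.26 against 4.77. The part of mast cells in the Rab44 difference between subsets was not tested. The untreated Rab44 call was lost with only the groups compared in the fit (adjusted p = 0.11). It was also lost without replicate 2 or 3 of CD103+CD11b- cells (adjusted p = 0.0745 and 0.112) or without replicate 1 of CD103-CD11b+ cells (adjusted p = 0.131). Rab3a, Rab3d, Rab26, Rab27b and Rab37 were called nowhere, and neither were Rab23, Rab28 and Rab40c, the 3 tested members placed outside these compartments.

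**Figure D3:**
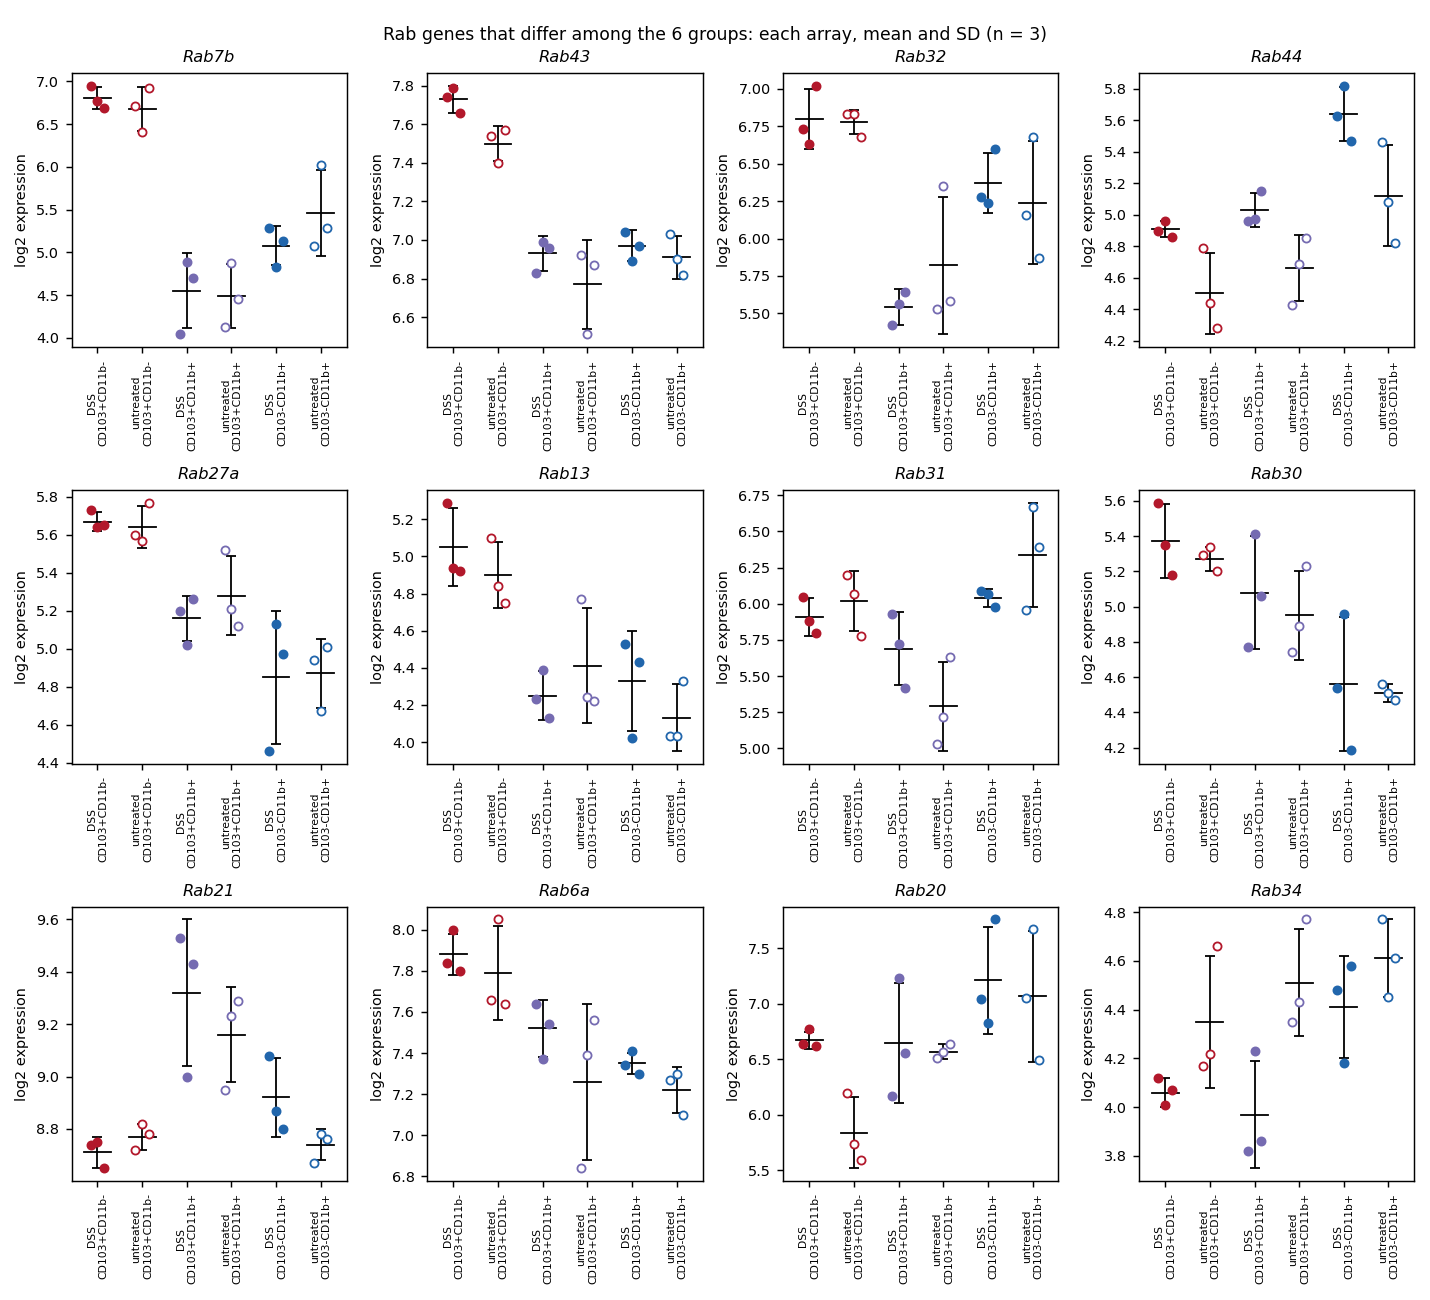
Log2 expression of the 12 Rab genes that differed by the F test, with 1 point per array, a line at the group mean and bars of 1 SD (n = 3). Filled points are DSS mice and open points untreated mice, with CD103+CD11b- cells in red, CD103+CD11b+ cells in purple and CD103-CD11b+ cells in blue, and each panel has its own axis. All red points of Rab7b, Rab43 and Rab27a lie above the others, though for Rab27a the difference from purple was called in neither condition. Rab21 has its highest means in purple.

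In all, 36 tested Rab genes were called in no comparison and not by the F test. Their ranges of group means ran from 0.14 for Rab5b to 0.77 for Rab39b, and their lowest adjusted p was 0.083 in the fit as reported. Rab11a, Rab26 and Rab39b passed a test under some alternatives. The standard error of a difference between 2 groups had a median of 0.166 for the Rab genes, with a range of 0.108 to 0.332. A missed threshold at this precision does not show that levels were alike.

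DSS moved no Rab gene past the threshold. By limma, 0 of 50 were called in CD103+CD11b- cells (0.129% of all genes were called), 0 in CD103+CD11b+ cells (0.0857% of all genes) and 0 in CD103-CD11b+ cells (0.1% of all genes), and 3, 7 and 1 had an unadjusted p under 0.05. Those are 6%, 14% and 2% of the Rab genes, against 6.08%, 10.1% and 7.67% of all genes. Over all subsets, fitted on the means of the 6 experiments, 0 were called as well, against 0.186% of all genes, and 6 (12%) had an unadjusted p under 0.05, against 10.5% of all genes. These counts stayed at 0 under every alternative run. The means per array of 8 neutrophil markers were 4.59 to 5.92 in DSS arrays, against 4.07 to 4.9 in untreated arrays. Of 7 tested, 1 was called higher in CD103+CD11b- and in CD103+CD11b+ cells and 0 in CD103-CD11b+ cells, and their part in the values below was not tested. Beside the shifts of Itgae and Itgam given above, the cDC1 marker Clec9a was called higher in DSS CD103-CD11b+ cells (1.4 ± 0.26, adjusted p = 0.0451) and the cDC2 marker Sirpa in DSS CD103+CD11b- cells (0.83 ± 0.14, adjusted p = 0.0215), 1 of 7 and 1 of 6 markers. Whether these shifts bear on the Rab values was not tested.

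Rab44 and Rab20 had positive DSS differences without a call. Rab44 was higher in DSS mice by 0.4 ± 0.17 in CD103+CD11b- cells, 0.37 ± 0.17 in CD103+CD11b+ cells and 0.52 ± 0.17 in CD103-CD11b+ cells, with adjusted p of 0.761, 0.466 and 0.379. Its DSS arrays lay above its untreated arrays in each of the 3 subsets, and 12.3%, 15.5% and 11.5% of all genes did not overlap in these subsets, in the order just given. Over all subsets its difference was 0.43 ± 0.09, with an adjusted p of 0.136. The mast cell protease genes Mcpt1 and Mcpt2 differed by 0.79 ± 0.12 (adjusted p = 0.0419) and 0.73 ± 0.18 (adjusted p = 0.2) in the same fit, with the highest means in DSS CD103-CD11b+ cells, 6.67 and 5.44. Of 5 tested mast cell markers 1 was called, with a median difference of 0.05, and their part in the Rab44 values was not tested. Rab20 differed by 0.83 ± 0.28 in CD103+CD11b- cells (95% interval 0.24 to 1.43, adjusted p = 0.621), where the 3 DSS arrays lay above the 3 untreated ones, and by 0.08 ± 0.28 and 0.14 ± 0.28 in CD103+CD11b+ and CD103-CD11b+ cells. Rab35, which recycles endosomal cargo, was at 7.18, 6.29 and 6.92 in DSS CD103+CD11b- cells, against 6.5, 6.28 and 5.81 in untreated ones, and these groups overlapped.

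Several negative differences without a call were found in CD103+CD11b+ cells, though 29 of the 50 Rab differences there were positive. Of the 7 with an unadjusted p under 0.05 by limma, those of Rab31 (0.4) and Rab44 were positive. Rab26, which acts in secretory granules, measured 4.51, 4.23 and 4.21 in DSS CD103+CD11b+ cells, against 4.78, 5.37 and 4.45 in untreated ones, a difference of -0.55 ± 0.19 (adjusted p = 0.324). Rab34 differed there by -0.54 ± 0.16 (adjusted p = 0.275). Rab40c, a Rab that also recruits a ubiquitin ligase, measured 5.16, 4.98 and 4.42 in DSS cells, against 5.64, 5.18 and 5.35 in untreated ones, a difference of -0.53 ± 0.19 (adjusted p = 0.333). Rab25, an epithelial relative of Rab11a, measured 5.45, 5.61 and 5.42 in DSS cells, against 6.06, 5.99 and 5.81 in untreated ones, a difference of -0.46 ± 0.14 (adjusted p = 0.275). Rab25, Rab34 and Rab40c did not overlap between conditions, as was so for 15.5% of all genes in these cells, and Rab26 did. The median of 10 epithelial markers differed by -0.46 in the same cells, and its part in the Rab25 value was not tested.

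**Figure D4:**
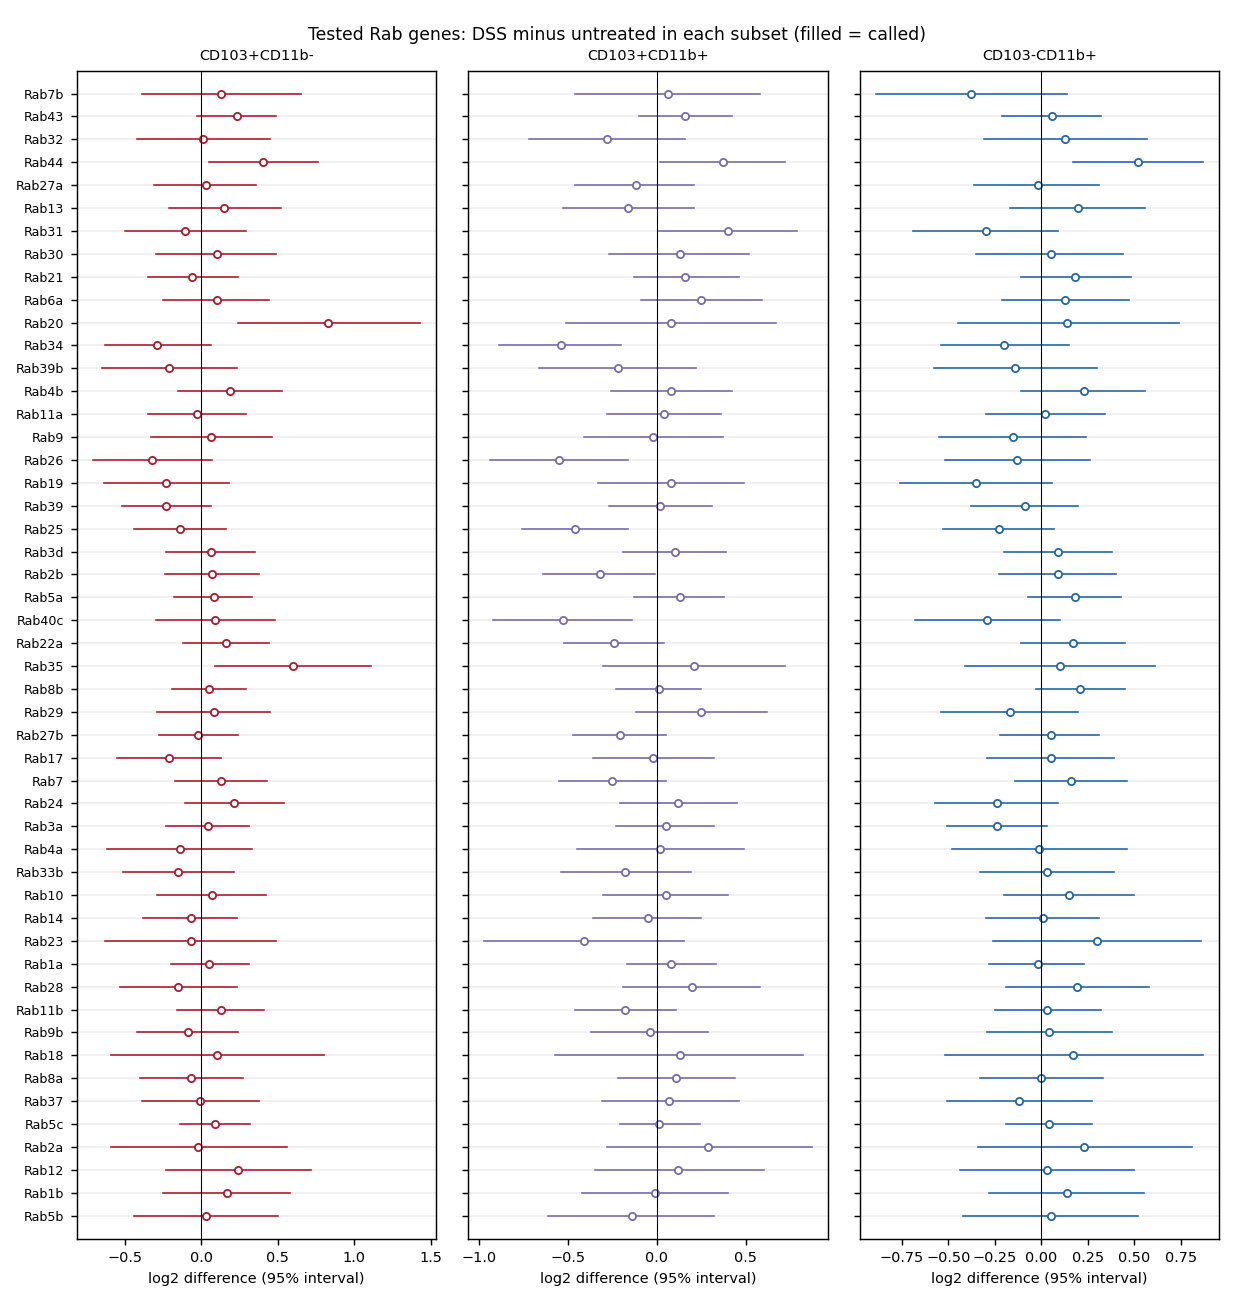
Log2 differences, DSS minus untreated, with 95% intervals for the 50 tested Rab genes in each subset, in the order of the F test. No point is filled because none was called. Rab20 in CD103+CD11b- cells has the largest positive value, 0.83, and Rab26 in CD103+CD11b+ cells the largest negative one, -0.55.

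Whether DSS acted differently on the subsets was tested as the difference of the DSS changes. No Rab gene was called by limma in any of the 3 pairs of subsets, where 0% of all genes were called, and 0, 2 and 2 Rab genes had an unadjusted p under 0.05 (0%, 4% and 4%, against 3.64%, 4.83% and 5.56% of all genes). Rab31 had a DSS change of 0.4 ± 0.19 in CD103+CD11b+ cells, larger than in CD103-CD11b+ cells by 0.7 ± 0.26 (adjusted p = 0.869). For Rab7b the DSS change was larger in CD103+CD11b- cells than in the CD103-CD11b+ subset by 0.5 ± 0.35 (adjusted p = 1). Calls made in 1 condition and not in the other are therefore not shown to differ between conditions.

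Some genes that act on Rab proteins also separated the subsets. Of 4 kinases and phosphatases tested, 3 were higher in CD103+CD11b- cells than in the CD103-CD11b+ subset in both conditions, the kinases Lrrk2 and Lrrk1 and the phosphatase-like Ppm1m, where 4.19% (DSS) and 5.01% (untreated) of all genes were called higher. The 2 kinases were also higher than in CD103+CD11b+ cells, where 3.56% and 2.76% of all genes were. Lrrk2, a kinase of Rab8a, Rab10 and related Rabs, measured 9.34, 9.37 and 9.06 in DSS and 9.24, 9.03 and 9.2 in untreated CD103+CD11b- cells. It measured 7.42, 7.39 and 7.29 in DSS and 7.13, 7.35 and 7.28 in untreated CD103+CD11b+ cells, and 6.28, 6.48 and 6.3 in DSS and 6.27, 5.88 and 6.01 in untreated CD103-CD11b+ cells. The 3 subsets formed separate steps with no overlap, and the DSS and untreated arrays of a subset lay close together. CD103+CD11b- cells were above CD103+CD11b+ cells by 1.89 ± 0.13 in DSS mice (adjusted p = 4.62e-08) and by 1.91 ± 0.13 in untreated mice (adjusted p = 2.56e-08). CD103+CD11b+ cells were above CD103-CD11b+ cells by 1.02 ± 0.13 in DSS mice (adjusted p = 0.000389) and by 1.2 ± 0.13 in untreated mice (adjusted p = 3.41e-05). These calls held under the alternatives run. The step between CD103+CD11b+ and CD103-CD11b+ cells was the less steady, down to 0.54 in DSS and 0.75 in untreated mice. Its adjusted p rose to as much as 0.0471 and 0.0114. Leaving out a single array does not bring the step that low. The values printed are those of the Lrrk2 probe set with the highest mean. Averaging over the probe sets of a gene was among the alternatives, and any other probe set of Lrrk2 is not shown, so the size of this step may depend on the probe set. The Lrrk2 substrates Rab8a and Rab10 were not called in any comparison.

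Lrrk1, a kinase of Rab7, measured 7.87, 7.75 and 7.47 in DSS and 7.82, 7.85 and 8.09 in untreated CD103+CD11b- cells. It measured 6.97, 7.02 and 6.38 in DSS and 7.05, 6.77 and 7.11 in untreated CD103+CD11b+ cells, and 6.85, 6.86 and 6.57 in DSS and 7.01, 6.67 and 7.14 in untreated CD103-CD11b+ cells. The CD103+CD11b- arrays lay above all others, and the other subsets overlapped. Against CD103-CD11b+ cells the difference was 0.94 ± 0.18 in DSS mice (adjusted p = 0.00143) and 0.98 ± 0.18 in untreated mice (adjusted p = 0.000865). Ppm1m, a relative of the Rab phosphatase Ppm1h, was higher than in CD103-CD11b+ cells by 0.96 ± 0.25 in DSS mice (adjusted p = 0.0167) and by 0.85 ± 0.25 in untreated mice (adjusted p = 0.0345). Both Ppm1m calls were lost without single arrays, namely replicates 5 and 6 of DSS and 2 and 3 of untreated CD103+CD11b- cells and replicates 4 and 5 of DSS and 2 and 3 of untreated CD103-CD11b+ cells, with adjusted p of up to 0.0971 in DSS mice and 0.166 in untreated mice.

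Exchange factors were called in both directions. Against CD103-CD11b+ cells, 1 of 34 GEFs was higher in CD103+CD11b- cells and 4 lower in DSS mice, and 2 were higher and 5 lower in untreated mice. Against CD103+CD11b+ cells 1 was higher and 3 lower in DSS mice, and 0 were higher and 5 lower in untreated mice. The shares called were 14.7% and 20.6% against CD103-CD11b+ cells (all genes 8.53% and 10.3%) and 11.8% and 14.7% against CD103+CD11b+ cells (all genes 5.96% and 6.86%), in DSS and untreated mice. Dennd4b, an exchange factor of the DENN family, was the higher gene in DSS mice. It measured 8.38, 7.92 and 8.1 in DSS and 7.83, 7.8 and 7.94 in untreated CD103+CD11b- cells, against 7.11, 6.82 and 7.1 in DSS and 6.81, 6.83 and 6.94 in untreated CD103-CD11b+ cells, which did not overlap (differences of 1.13 ± 0.14 and 1 ± 0.14, adjusted p = 1.44e-05 and 4.85e-05). Rabgef1, the exchange factor of Rab5 and Rab21, measured 7.16, 7.02 and 7.22 in DSS and 7.23, 7.36 and 6.88 in untreated CD103+CD11b- cells, against 8.01, 7.84 and 7.86 in DSS and 7.7, 7.98 and 8.11 in untreated CD103+CD11b+ cells. It was lower in CD103+CD11b- cells without overlap, by -0.77 ± 0.14 in either condition (adjusted p = 0.00114 in DSS and 0.00103 in untreated mice). Mon1b, part of the exchange factor of Rab7, was lower in CD103+CD11b- cells than in the CD103+CD11b+ subset by -0.92 ± 0.16 in untreated mice (adjusted p = 0.00087), with 4.75, 4.91 and 4.92 against 5.47, 5.77 and 6.1 and no overlap. These calls of Dennd4b, Rabgef1 and Mon1b held under the 15 alternatives run for each.

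GAPs were called in both directions too. Against CD103-CD11b+ cells, 3 of 35 were higher and 0 lower in DSS mice and 3 were higher and 3 lower in untreated mice, and against CD103+CD11b+ cells 3 were higher and 1 lower in DSS mice and 4 higher and 3 lower in untreated mice. The shares called against CD103-CD11b+ cells were 8.57% in DSS mice, at the 8.53% of all genes, and 17.1% in untreated mice, against 10.3%. For the CD103+CD11b+ comparison they were 11.4% and 20%, against 5.96% and 6.86% of all genes. Tbc1d8, a TBC-domain protein, measured 9.72, 9.68 and 9.79 in DSS and 9.42, 9.53 and 9.65 in untreated CD103+CD11b- cells, against 8.47, 8.45 and 8.23 in DSS and 8.39, 8.6 and 8.66 in untreated CD103-CD11b+ cells. The CD103+CD11b- arrays were all above these, by 1.35 ± 0.13 in DSS mice (adjusted p = 5.71e-07) and by 0.98 ± 0.13 in untreated mice (adjusted p = 1.88e-05). Rabgap1l, a relative of Rabgap1, was higher by 0.9 ± 0.13 in DSS mice (adjusted p = 6.76e-05) and by 0.91 ± 0.13 in untreated mice (adjusted p = 5.01e-05). Tbc1d9b, a GAP of Rab11a, measured 6.51, 6.59 and 6.53 in DSS and 6.41, 6.2 and 6.3 in untreated CD103+CD11b- cells, against 7.68, 7.39 and 7.22 in DSS and 7.37, 7.73 and 7.74 in untreated CD103+CD11b+ cells. It was lower in CD103+CD11b- cells without overlap, by -0.89 ± 0.15 in DSS mice (adjusted p = 0.000872) and by -1.31 ± 0.15 in untreated mice (adjusted p = 1.07e-05). These calls of Tbc1d8, Rabgap1l and Tbc1d9b held under the 15 alternatives run for each.

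Among 44 effectors tested, the proteins that bind GTP-loaded Rabs, the calls against CD103-CD11b+ cells were 13.6% in DSS and 15.9% in untreated mice, where 8.53% and 10.3% of all genes were called. There 4 were higher and 2 lower in DSS mice and 3 were higher and 4 lower in untreated mice, and against CD103+CD11b+ cells 5 were higher and 0 lower in DSS mice and 0 higher and 1 lower in untreated mice. The shares against CD103+CD11b+ cells were 11.4% and 2.27%, where 5.96% and 6.86% of all genes were called. Rilpl2, which binds Rabs that Lrrk2 has phosphorylated, measured 6.76, 7.13 and 7.06 in DSS and 6.54, 7.02 and 6.85 in untreated CD103+CD11b- cells, against 7.7, 8.18 and 8.27 in DSS and 8.06, 7.98 and 7.85 in untreated CD103-CD11b+ cells. The CD103+CD11b- arrays were all lower, by -1.07 ± 0.21 in DSS mice (adjusted p = 0.00232) and by -1.16 ± 0.21 in untreated mice (adjusted p = 0.000925). Myo5a, the myosin that moves organelles carrying Rab27a, was lower in CD103+CD11b- cells by -0.77 ± 0.17 in DSS mice (adjusted p = 0.00425) and by -0.99 ± 0.17 in untreated mice (adjusted p = 0.000342), whereas Rab27a itself was higher there. Appl1, an effector of Rab5, was higher by 0.82 ± 0.13 in untreated mice (adjusted p = 0.000273). These calls of Rilpl2, Myo5a and Appl1 held under the 15 alternatives run for each. In DSS mice Appl1 was higher by 0.46 ± 0.13 (adjusted p = 0.0362), a call lost in 6 of 15 alternatives. In untreated mice CD103+CD11b+ cells were also above CD103-CD11b+ cells in Appl1, by 0.71 ± 0.13 (adjusted p = 0.00393). Of 7 escort and prenylation genes and 5 Rab-like genes, 0 were called by limma in any comparison, and of 15 genes of the related Arf family only Arf2 was. DSS against untreated gave 0 calls in the 7 lists of the Rab cycle in every subset.

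**Figure D5:**
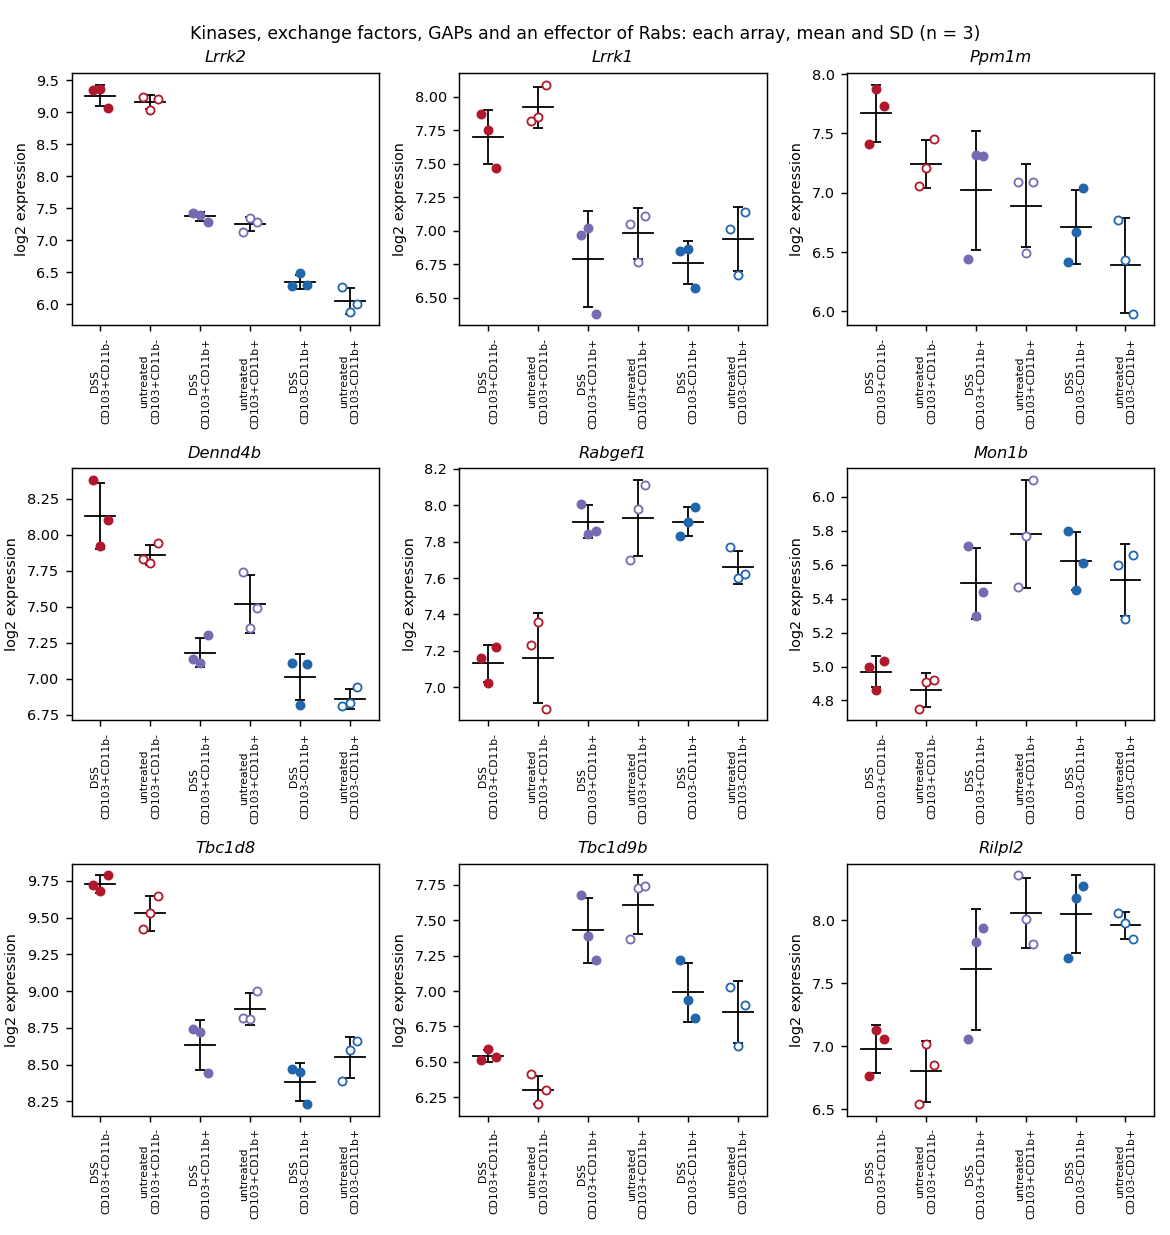
Log2 expression of 9 genes that act on Rab proteins, with 1 point per array, a line at the group mean and bars of 1 SD (n = 3), coloured and filled by subset and condition as in the plot of the 12 Rab genes. By the probe set used, Lrrk2 forms 3 steps, with CD103+CD11b- arrays at 9.03 to 9.37, CD103+CD11b+ arrays at 7.13 to 7.42 and CD103-CD11b+ arrays at 5.88 to 6.48. Rabgef1, Mon1b, Tbc1d9b and Rilpl2 have their lowest means in CD103+CD11b- cells.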

How the data were processed

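Expression was read from the submitters' table of 34760 probe sets on 18 arrays. Its log2 values were made by the authors with RMA (background correction, quantile normalization and summary per probe set), per the submitters' processing notes, whose version and annotation build are not given in the sources used here. Values ran from 1.07 to 13.16 with array medians of 3.99 to 4.09 and correlations of 0.965 to 0.982 between replicates. Precision is limited by the number of arrays.

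The group of each array came from its label. Of the probe sets, 21640 carried 1 symbol, 1321 several and 11799 none, and the first were used, with the highest mean for a gene with several. A gene was tested if it exceeded the 40th percentile of all values (3.51) in at least 3 arrays, leaving 14003. One model with a mean per group was fitted with limma 3.58.1 (R 4.3.3, lmFit and eBayes, two-sided), p-values were adjusted by Benjamini-Hochberg over those genes within each comparison, and a call is an adjusted p under 0.05. DSS over all subsets was fitted on the means of the 6 experiments. In all, 14 comparisons were made, and the fit was tested on simulated data.

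The members, the marker lists and the lists of the Rab cycle were chosen with earlier results of these data known. Named were each called member, with the 12 lowest F-test p given in every array, members without a call by class, and at most 3 called genes each way per list of the Rab cycle. The label's number marks an experiment that gave all subsets, so same-numbered arrays are paired. Their deviations from the group means correlated at 0.11 to 0.31 in DSS and -0.03 to 0.32 in untreated mice, against medians of -0.13 and -0.12 for other pairs. Deviations cancel within a group, so positive values in same-numbered pairs force negative ones in other pairs. The medians of other pairs are therefore no separate baseline. Alternatives changed the filter, the arrays fitted, the scaling, the eBayes options, the choice of probe set and the replicate block, or left out 1 array.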

Additional observations from a re-analysis of the deposited data

How the results depend on the processing

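The counts of called Rab genes depended most on the comparison of CD103+CD11b+ with CD103-CD11b+ cells. In untreated mice its count of 2 became 0 with only the groups compared in the fit, 1 without replicate 2 of untreated CD103-CD11b+ cells, and ran from 1 to 2 over the arrays left out. In DSS mice its count of 0 became 1 (Rab32) with the filter at the 60th percentile, with only the groups compared, after quantile normalization again, under eBayes with trend and robust, with the replicate block and with the experiment as a random replicate block (consensus correlation 0.0596). In untreated mice, CD103+CD11b- cells set against the CD103+CD11b+ subset, the count of 5 ran from 3 to 5 over the arrays left out, with 3 without replicate 1 or 2 of CD103+CD11b- or replicate 2 of CD103+CD11b+ cells. The other subset comparisons ran from 6 to 9, 4 to 6 and 4 to 5, the F test from 10 to 13, and every count for DSS stayed at 0. The replicate block gave calls to Rab32, Rab39b and Rab6a as stated with them and changed no other call of a Rab gene. Over the called Rab genes, 316 of 325 alternative values and 332 of 378 with 1 array left out kept their call, and 0 reversed. Over all genes, the 575 calls made in untreated mice for CD103+CD11b+ cells over the CD103-CD11b+ subset became 150 with only those groups in the fit. The few DSS calls over all genes moved as well. In CD103+CD11b+ cells 12 became 0 with only those groups fitted. In CD103-CD11b+ cells 14 became 6 with the 60th percentile filter, 3 with only those groups and 24 with trend and robust. Over all subsets 26 became 16 without a filter and 51 with trend and robust, and the difference in DSS change between CD103+CD11b- and CD103+CD11b+ cells went up to 2 calls, against 0, with trend and robust. The causes were not tested. With 3 arrays a group, the standard errors bound what could be called.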
